A study of Mus musculus with 15 samples.

Results

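The hydroxysteroid dehydrogenases described here are 10 genes of the mouse liver, named by symbol and found among the 55450 gene IDs of the count table: Hsd3b2, Hsd3b3, Hsd3b5, Hsd11b1, Hsd17b2, Hsd17b6, Hsd17b10, Hsd17b11, Hsd17b13 and Srd5a1. They were selected on values of these same mice, the differences between Old and Adult among them, so their levels in that contrast are given as a description and not as a test. Of the 10 genes, 9 passed the filter on low counts and Hsd3b5 did not.

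Hydroxysteroid dehydrogenases move a steroid between its hydroxyl and its keto form, and thereby switch it between forms that bind their receptor well and forms that bind it poorly. The liver uses them, together with 5-alpha reductases, aldo-keto reductases and conjugating enzymes, to adjust and clear glucocorticoids, androgens and estrogens. Several proteins of the family mainly handle other substrates, such as retinol, bile acid precursors and fatty acids.

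Liver mRNA was sequenced from 15 female C57BL/6 mice, with 1 library per mouse. At the outset the Adult group (5 mice, A1 to A5) was aged 6 months and the Old group (5 mice, O1 to O5) 22 months, and both groups were gavaged daily with the vehicle, corn oil. The PDX group (5 mice, P1 to P5), likewise aged 22 months, was given protectin DX, a lipid mediator derived from docosahexaenoic acid, at 30 ng per g of body weight in corn oil. The labels name no transgene or deleted gene, and the gavage lasted 9 weeks per the sample labels and 8 weeks per the series description.

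Libraries held 22424383 to 36070835 counted pairs among Adult, 25480180 to 29069346 among Old and 26113995 to 30139181 among PDX mice. Levels are CPM, which are counts scaled to a common library size with the TMM factors of edgeR, and these factors ran from 0.884 in O1 to 1.33 in O2. O2 and O5 stood apart from the other Old mice, and the study itself describes them so, hence the comparisons that use the Old group are also given without them. The labels give O5 the highest frailty index of the 15 mice, 0.56, with 4 positive frailty criteria. For O2 they give an index of 0.11 with 3 positive criteria. The tissue label was checked against 7 hepatocyte markers, among them albumin and apolipoproteins, all 7 of which were detected in each mouse. Their summed level ranged from 134595 to 146822 CPM in the Adult mice, from 78888 (O5) to 226650 CPM (O1) in the Old mice and from 132023 to 184651 CPM in the PDX mice. In whole liver, fewer cells of a type and less RNA per cell cannot be told apart.

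The 3 Hsd3b genes lie within a cluster on the minus strand of chromosome 3 (GRCm38, the assembly that mm10 names): Hsd3b5 at chr3:98618634-98630252, Hsd3b2 at chr3:98709255-98724543 and Hsd3b3 at chr3:98741523-98763127. Their coding sequences are 1122 bases long each and close to one another, with 95.1% identical bases between Hsd3b2 and Hsd3b3, 80.3% between Hsd3b2 and Hsd3b5 and 79.6% between Hsd3b3 and Hsd3b5. The 60-base stretch in which Hsd3b2 and Hsd3b3 differ most, coding bases 586 to 645, is shown because reads there can be told apart, with capitals at bases that differ from Hsd3b3 (13 in Hsd3b2 and 31 in Hsd3b5):
Hsd3b3: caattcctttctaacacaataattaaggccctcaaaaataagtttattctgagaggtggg
Hsd3b2: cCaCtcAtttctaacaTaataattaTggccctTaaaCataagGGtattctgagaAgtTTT
Hsd3b5: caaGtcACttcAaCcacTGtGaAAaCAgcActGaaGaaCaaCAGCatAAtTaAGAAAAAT

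The first 60 coding bases are shown as the opposite case, since Hsd3b2 differs from Hsd3b3 there at 1 base and Hsd3b5 at 6, again in capitals:
Hsd3b3: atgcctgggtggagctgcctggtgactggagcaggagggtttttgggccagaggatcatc
Hsd3b2: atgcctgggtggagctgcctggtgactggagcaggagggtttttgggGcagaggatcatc
Hsd3b5: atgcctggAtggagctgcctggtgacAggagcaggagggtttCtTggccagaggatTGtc

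The longest run of coding bases that Hsd3b2 and Hsd3b3 have in common is 228 bases, well over the 50 bases of a read. Over all protein-coding transcripts of GENCODE M21, 26.9% of the 3695 distinct 50-base windows of Hsd3b2 also occur in a transcript of another gene, on either strand, as do 32.6% of the 1710 windows of Hsd3b3 and 21.2% of the 1500 windows of Hsd3b5. The partner with the most windows in common was Hsd3b3 for Hsd3b2 (405 windows) and Hsd3b4 together with its near copy Gm10681 for Hsd3b5 (273 windows). Only uniquely aligned pairs were counted, so a pair that fits another gene equally well is not in the counts, and the levels of these 3 genes are uncertain to that extent. For Hsd17b6 the share was 12.1%, all of it with the overlapping retinol dehydrogenase genes Rdh1 and Rdh16f1, and for Srd5a1 16.5%, with Gm17108, a non-coding gene that overlaps its start on the same strand. Hsd17b13 shared 0.510% of its windows, and Hsd11b1, Hsd17b2, Hsd17b10 and Hsd17b11 shared 0.

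**Figure D1:**
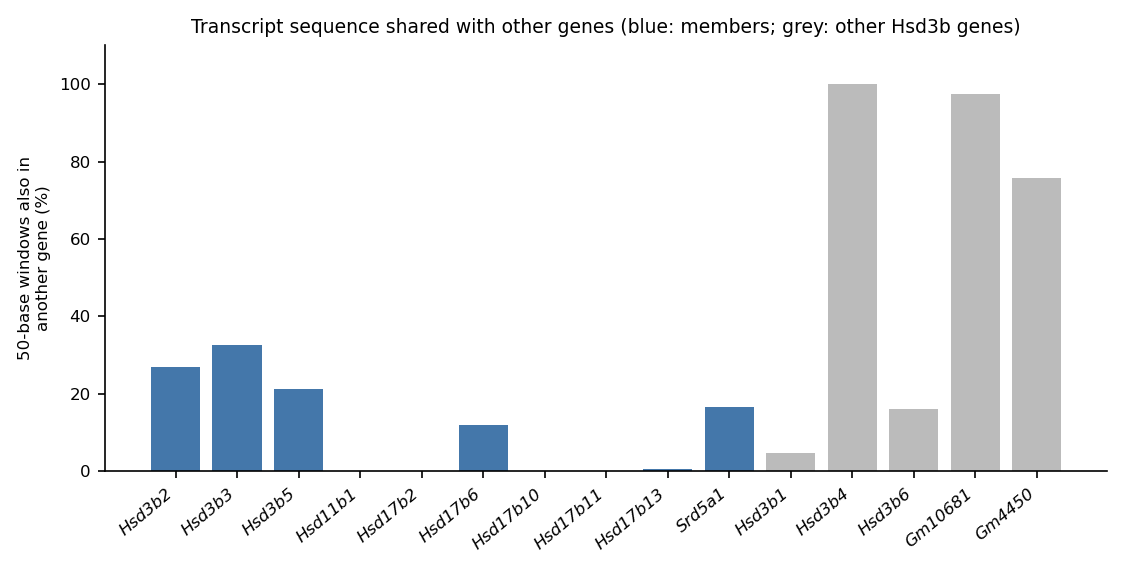
Share (%) of the distinct 50-base windows of each gene's protein-coding transcripts that also occur, on either strand, in a transcript of another gene. Blue bars are the 10 genes of this description and grey bars other genes of the Hsd3b cluster; Hsd3b4 stands at 100%, Hsd3b3 at 32.6% and 4 genes at 0.

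Hsd3b2 and Hsd3b3 belong to the enzymes that turn the early 3-beta-hydroxy steroids, such as pregnenolone, into 3-keto steroids, the step that yields progesterone and androstenedione. Hsd3b2 was measured at 14.1, 22.6, 22.7, 26.8 and 22.0 CPM in A1 to A5. In O1 to O5 it stood at 6.03, 3.48, 5.69, 3.68 and 0.108 CPM, and in P1 to P5 at 2.80, 2.29, 4.61, 2.22 and 4.68 CPM. Every Old and every PDX mouse lay under the lowest Adult mouse, and the Old and PDX values overlapped. From Adult to Old the log2 fold change was -2.51 ± 0.56 (SE), and -2.06 ± 0.29 without O2 and O5.

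Hsd3b3, the more abundant of the pair, had 95.6, 175, 129, 146 and 161 CPM in A1 to A5. Its values were 62.0, 24.6, 69.8, 36.2 and 1.19 CPM in O1 to O5, and 35.0, 22.6, 50.8, 45.7 and 34.4 CPM in P1 to P5. Again no mouse of the Old or the PDX group reached the Adult range. Its log2 fold change in Old against Adult was -1.87 ± 0.61 (SE), and -1.32 ± 0.28 without O2 and O5.

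The level of Hsd3b2 as a ratio to that of Hsd3b3, in CPM, had a median of 0.147 in the Adult mice (0.129 to 0.184), of 0.0973 in the Old mice (0.0815 to 0.141) and of 0.0907 in the PDX mice (0.0485 to 0.136). The ranges of the Adult mice and of the other groups overlapped. The counts of the 8 measured Hsd3b genes other than Hsd3b7 were also summed to 1 feature, which gave an Old to Adult log2 fold change of -1.90 ± 0.60 (SE). Pairs that fit Hsd3b2 and Hsd3b3 equally well are not in this sum either. Most of the sum is Hsd3b3 (Adult mean 141 CPM, against 21.6 CPM for Hsd3b2), so it does not test Hsd3b2 alone.

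Hsd3b5 encodes a mouse liver enzyme that mainly reduces 3-keto steroids and is known for a far higher level in male than in female liver. In these females it was close to the limit of detection, with 16, 20, 43, 18 and 11 counts in A1 to A5. There were 8, 4, 2, 6 and 0 counts in O1 to O5 and 2, 1, 1, 2 and 1 counts in P1 to P5, against a floor of 3 counts per library. The lowest Adult mouse, at 0.316 CPM, was above all PDX mice but under O1, at 0.340 CPM. The difference between PDX and Old was -0.64 in log2 CPM, which an exact two-sided permutation test over the 5 and 5 mice did not separate from 0 (p = 0.222, adjusted p = 0.222 over 2 comparisons). Between PDX and Adult it was -2.63 (exact permutation p = 0.00794, the smallest that 5 against 5 mice allow, adjusted p = 0.0159). Hsd3b5 was selected with the values of these same Adult mice known, so this p-value is no support for a difference. Both differences are understated, since the prior count of 2 in log2 CPM is at least as large as each PDX count.

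**Figure D2:**
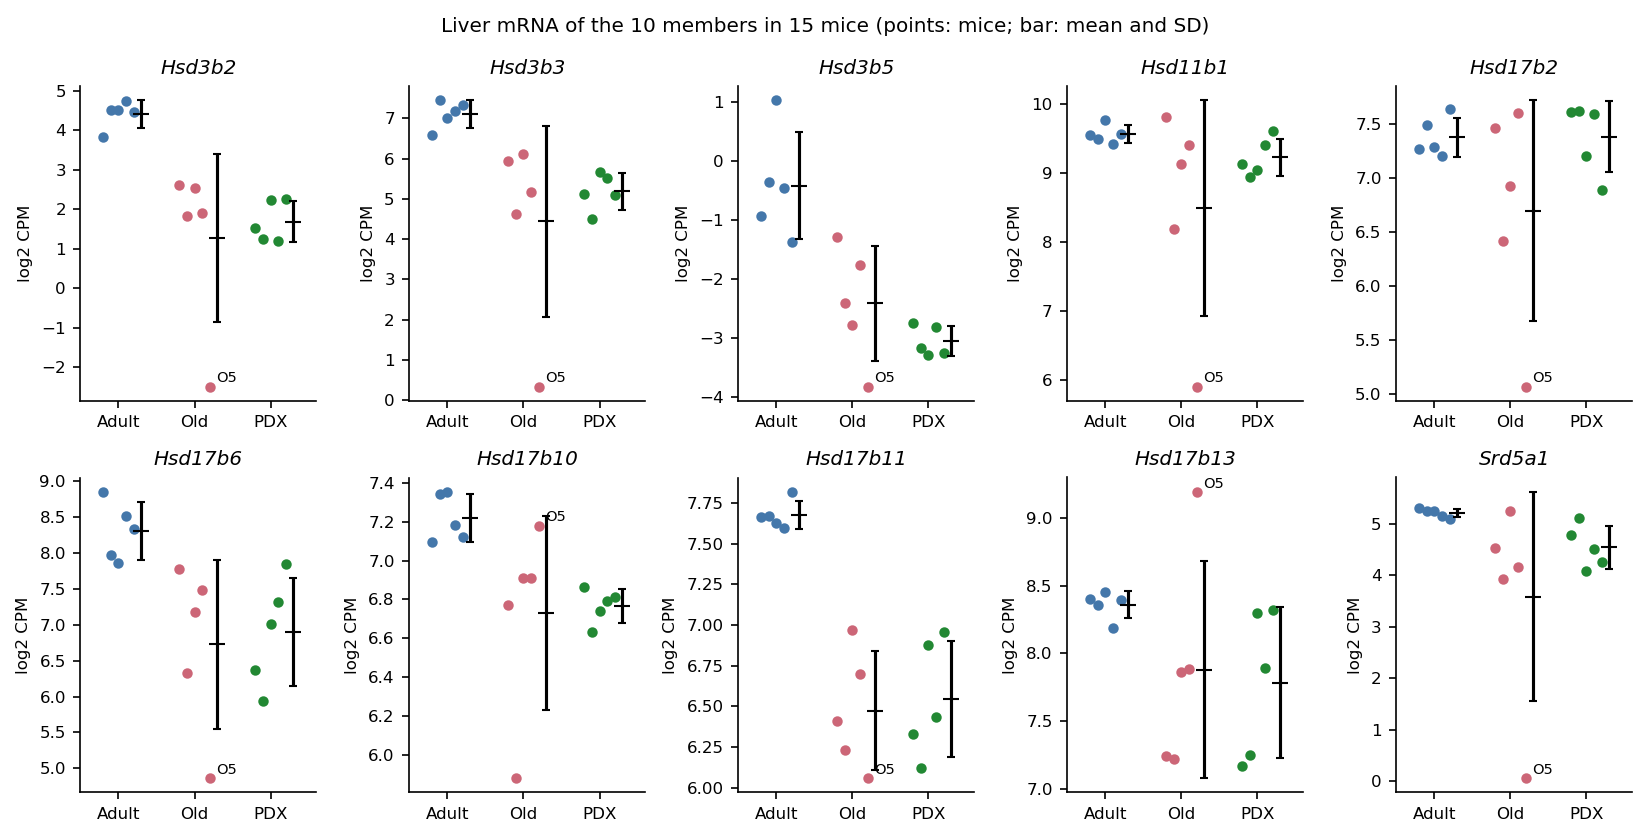
Level of each of the 10 genes (log2 CPM, prior count 2, a separate linear axis per panel) in the 5 Adult, 5 Old and 5 PDX mice; points are mice, with the mean and SD of the group beside them and O5 named. In Hsd3b2, Hsd3b3, Hsd17b6 and Hsd17b11 no Old or PDX mouse reaches the Adult range, and O5 is the lowest mouse of the 15 in 8 panels and the highest in that of Hsd17b13.

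Hsd11b1 regenerates active glucocorticoid inside cells, from the inert 11-keto form, with NADPH that H6pd supplies in the endoplasmic reticulum. Its level was 750, 724, 876, 687 and 757 CPM in A1 to A5. The Old mice O1 to O5 had 903, 290, 562, 683 and 59.5 CPM, and the PDX mice 562, 494, 527, 679 and 783 CPM. O1 lay above all Adult mice and O5 far under all others, so the Old group spanned 15.2-fold between its extremes, against 1.28-fold in the Adult group. The Old to Adult log2 fold change, -0.60 ± 0.45 (SE), was -0.07 ± 0.17 without O2 and O5. H6pd itself had a mean of 375 ± 95.9 CPM (SD, n = 5) in the Adult, 611 ± 393 CPM in the Old and 514 ± 78.5 CPM in the PDX mice, and it did not pass the threshold in any comparison.

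Hsd17b2 oxidizes estradiol and testosterone at carbon 17 to their weaker keto forms. It ranged from 148 to 199 CPM in the Adult mice and from 118 to 198 CPM in the PDX mice. In the Old mice it ranged from 33.5 CPM in O5 and 85.6 CPM in O2 to 195 CPM in O4. Here the groups overlapped, and the Old to Adult log2 fold change of -0.45 ± 0.34 (SE) was -0.01 ± 0.19 without O2 and O5.

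Hsd17b6, a relative of the retinol dehydrogenases, oxidizes 3-alpha-hydroxy steroids such as androstanediol. Its levels were 461, 251, 233, 364 and 320 CPM in A1 to A5. They were 220, 79.9, 145, 178 and 29.1 CPM in O1 to O5 and 82.9, 61.2, 129, 159 and 229 CPM in P1 to P5. The highest Old and PDX mice came close to the lowest Adult mouse, at 233 CPM, without reaching it. In Old against Adult, the log2 fold change was -1.32 ± 0.45 (SE), and -0.84 ± 0.36 without O2 and O5.

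Srd5a1 is a 5-alpha reductase and not a hydroxysteroid dehydrogenase; it reduces the ring of testosterone, which gives dihydrotestosterone, and of glucocorticoids, which starts their clearance. In A1 to A5 it was measured at 39.2, 37.9, 37.6, 35.3 and 34.0 CPM. O1 to O5 had 23.1, 15.2, 37.9, 17.6 and 0.974 CPM, and P1 to P5 had 27.4, 34.3, 16.7, 22.6 and 18.9 CPM. The Adult mice were tightly grouped, with a coefficient of variation of 5.67%, while O3 and P2 lay within their range and the other 8 mice under it. The Old to Adult log2 fold change was -0.96 ± 0.52 (SE), and -0.48 ± 0.24 without O2 and O5.

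Hsd17b10 works in mitochondria, where it oxidizes isoleucine breakdown products and also forms part of the ribonuclease that trims mitochondrial tRNAs. It ranged from 137 to 164 CPM in the Adult mice, from 58.8 (O2) to 145 CPM (O5) in the Old mice and from 99.0 to 116 CPM in the PDX mice. All 5 PDX mice and 4 of the 5 Old mice lay under the Adult range, and O5 was within it. Against Adult, the log2 fold change of the Old mice was -0.43 ± 0.18 (SE), and -0.35 ± 0.09 without O2 and O5.

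Hsd17b11 and Hsd17b13 encode proteins of the lipid droplet surface and are close neighbours on the minus strand of chromosome 5, at chr5:103989762-104021919 and chr5:103955440-103977410. Hsd17b11, which can oxidize androstanediol at carbon 17, had 203, 204, 198, 194 and 226 CPM in A1 to A5. It had 85.2, 75.1, 125, 104 and 66.7 CPM in O1 to O5 and 80.4, 69.7, 117, 86.6 and 124 CPM in P1 to P5. The gap between the highest aged mouse, at 125 CPM, and the lowest Adult mouse, at 194 CPM, was wider than the whole Adult range. A log2 fold change of -1.17 ± 0.19 (SE) followed for Old against Adult, and one of -0.95 ± 0.18 without O2 and O5.

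Hsd17b13, a hepatocyte protein with retinol dehydrogenase activity, had 337, 328, 350, 291 and 336 CPM in A1 to A5. It stood at 151, 149, 232, 236 and 585 CPM in O1 to O5, and at 144, 152, 314, 237 and 320 CPM in P1 to P5. O5 was the highest of the 15 mice, the other 4 Old mice lay under all Adult mice, and P3 and P5 were within the Adult range. The Old to Adult log2 fold change was -0.28 ± 0.34 (SE), -0.78 ± 0.24 without O5 alone and -0.66 ± 0.26 without O2 and O5. The ratio of Hsd17b13 to Hsd17b11 in CPM was 1.49 to 1.77 in the Adult, 1.78 to 8.77 in the Old and 1.78 to 2.74 in the PDX mice, so each aged mouse had a higher ratio than each Adult mouse, and O5 the highest.

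**Figure D3:**
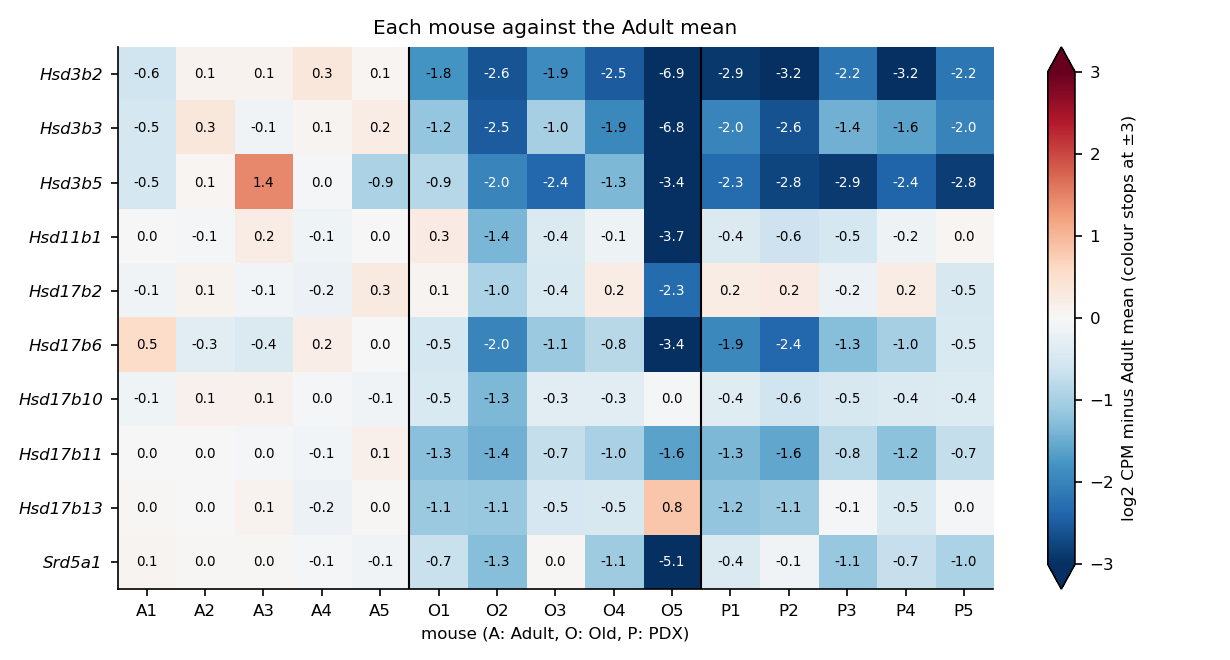
Level of each of the 10 genes in each mouse as log2 CPM minus the mean of the 5 Adult mice (blue lower, red higher, colour capped at 3 either way, values printed in the cells). O5 reaches -6.9 for Hsd3b2 and -6.8 for Hsd3b3 and is above 0 for Hsd17b13, while O2 is under 0 in all 10 rows.

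Read by mouse, O2 was under the Adult range for all 10 genes. O3 and O4 were under it for 9 each, O5 for 8 and O1 for 7. P1 and P4 were under it for 9 each and P2, P3 and P5 for 8 each. Only 2 of these 100 values were above the Adult range, Hsd11b1 in O1 and Hsd17b13 in O5. The share of all genes under the Adult range in each mouse was not determined. The 10 genes were also chosen with the Old to Adult contrast known, so nothing is read from these counts.

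O5 departed from the other Old mice by unequal factors. Against the median of O1, O3 and O4 in CPM, Hsd3b3 was 52.1-fold lower in O5, Srd5a1 23.7-fold, Hsd11b1 11.5-fold, Hsd17b6 6.14-fold, Hsd17b2 5.27-fold and Hsd17b11 1.56-fold. For Hsd3b2, with 3 counts in O5, the ratio was 52.6-fold with a 95% Poisson interval of 18.0 to 255, which covers the counting error of O5 only. Hsd17b10 was 1.21-fold and Hsd17b13 2.52-fold higher in O5 than that median. Of the 15808 genes tested, 0.709% were as low in O5 as Hsd3b2 on the log2 CPM scale and 0.462% as low as Hsd3b3. In O2 the 9 genes that passed the filter were lower than the median of O1, O3 and O4 by 1.38-fold (Hsd17b11) to 2.52-fold (Hsd3b3). Beside this, albumin was at 34724 CPM in O5 and 65645 CPM in O2, against 110100 to 180125 CPM in the other Old mice, and the part of lower hepatocyte transcripts in these values was not tested.

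In the Old to Adult comparison, the quasi-likelihood test of edgeR, adjusted after Benjamini and Hochberg over all 15808 genes, put 2 of the 9 genes, Hsd3b2 and Hsd17b11, past the adjusted p threshold of 0.05, both lower in Old. Of all genes tested, 6.78% passed, 2.07% as lower in Old. The median log2 fold change of the 9 genes was -0.96, and 0.07 over all genes tested, of which 43.2% had an estimate under 0. Without overlap, the 5 Old mice lay under the 5 Adult mice for Hsd3b2, Hsd3b3, Hsd17b6 and Hsd17b11, which is 4 of the 10 genes, against 4.48% of all genes tested. The genes were chosen with this contrast known, so nothing is read from these counts. Without O2 and O5, 4 of the 9 passed, with Hsd3b3 and Hsd17b10 added, against 7.12% of all genes tested in that fit. Without O5 alone 5 passed (13.2% of all genes) and without O3 alone 3 (13.5%). Without A2, A3, A4 or A5, 1 gene passed, against 0.97% to 1.28% of all genes, since Hsd3b2 then missed the threshold.

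**Figure D4:**
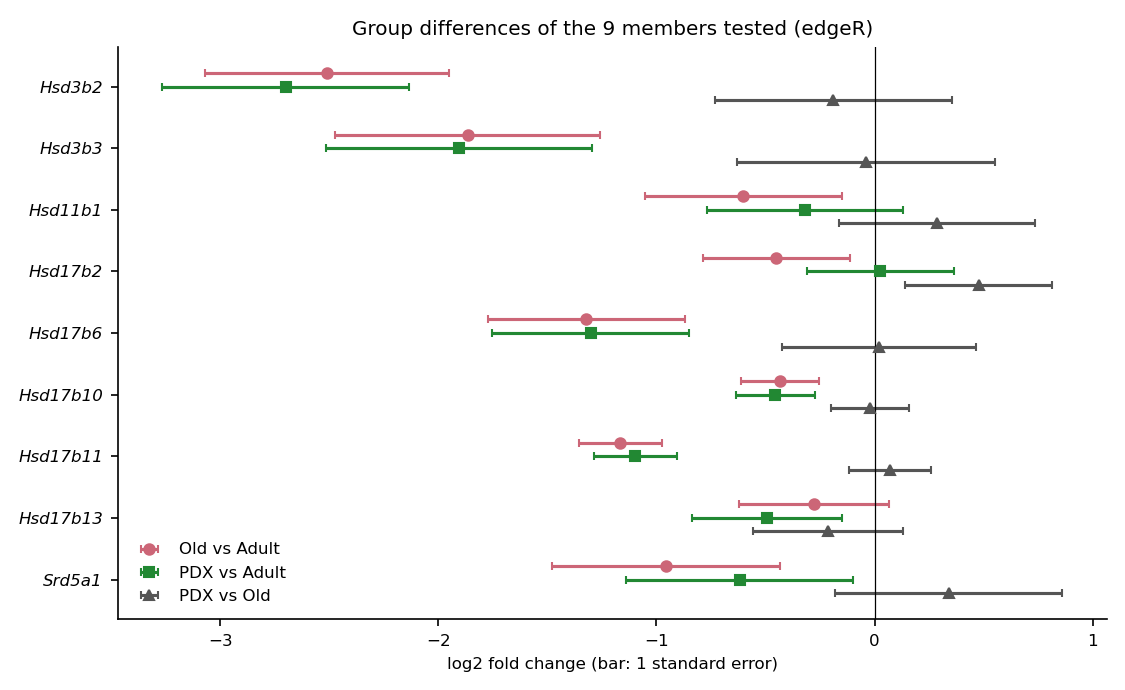
Log2 fold change of the 9 genes above the filter on low counts in the 3 comparisons (edgeR, all 15 mice in 1 fit; points are estimates and bars 1 SE to each side). The 9 Old to Adult estimates lie under 0, from -2.51 for Hsd3b2 to -0.28 for Hsd17b13, and the PDX to Old estimates lie between -0.21 and 0.48.

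The PDX to Old comparison asks whether protectin DX changed the aged liver, and the Old mice in it are those of the contrast above. None of the 9 genes passed the threshold set for it, 0.25 for the adjusted p of edgeR. The background was 0%, since 0 of the 15808 genes passed, also in DESeq2; at an unadjusted p under 0.05 there were 834 genes (5.28%), none of them among the 9. The largest difference was that of Hsd17b2, higher in PDX by 0.48 ± 0.34 (SE) on the log2 scale (adjusted p = 0.793). For the pair with the lowest levels relative to Adult, the log2 fold change was -0.19 ± 0.54 for Hsd3b2 (adjusted p = 0.930) and -0.04 ± 0.59 for Hsd3b3 (adjusted p = 0.989). Hsd17b11 gave 0.07 ± 0.19 (adjusted p = 0.926) and Hsd17b6 0.02 ± 0.45 (adjusted p = 0.992). The estimate was 0.34 ± 0.52 for Srd5a1, 0.28 ± 0.45 for Hsd11b1, -0.02 ± 0.18 for Hsd17b10 and -0.21 ± 0.34 for Hsd17b13. Their adjusted p-values in edgeR's test lay between 0.875 and 0.981.

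With 5 mice a group, a change well above its standard error could go undetected. In PDX to Old, G6pc, which is outside the 9 genes, stood at -1.16 ± 0.32 (SE) and did not pass. Changes well above their standard errors could thus be missed in the 9 genes too. Without O2 and O5 the estimates for Hsd3b2 and Hsd3b3 were -0.61 ± 0.28 (adjusted p = 0.548 in edgeR's test) and -0.56 ± 0.26 (adjusted p = 0.552), those of Hsd11b1, Hsd17b6, Hsd17b11 and Srd5a1 turned from above to under 0 and that of Hsd17b13 from under to above 0, and 0 of the 9 genes passed. For none of the 10 genes were the PDX and the Old mice free of overlap, against 0.342% of all genes tested.

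PDX mice were also set against Adult mice, which differ in both age and treatment. The Adult mice are those of the first contrast, so this comparison is not independent of it. The log2 fold change was -2.70 ± 0.56 (SE) for Hsd3b2 (adjusted p = 0.0195 in edgeR's test) and -1.10 ± 0.19 for Hsd17b11 (adjusted p = 0.00730). These 2 of the 9 genes passed the threshold of 0.05, both lower in PDX, where 2.66% of all genes passed and 0.898% as lower. The genes were chosen with the values of these Adult mice known, so these calls and p-values are no support for a difference. Hsd3b3 at -1.90 ± 0.61 (adjusted p = 0.103), Hsd17b6 at -1.30 ± 0.45 (adjusted p = 0.126) and Hsd17b10 at -0.45 ± 0.18 (adjusted p = 0.168) did not pass. Neither did Srd5a1 at -0.62 ± 0.52, Hsd17b13 at -0.49 ± 0.34, Hsd11b1 at -0.32 ± 0.45 and Hsd17b2 at 0.03 ± 0.34, with adjusted p-values in edgeR's test from 0.441 to 0.976.

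All 5 PDX mice lay under all 5 Adult mice for 6 of the 10 genes (Hsd3b2, Hsd3b3, Hsd3b5, Hsd17b6, Hsd17b10 and Hsd17b11), against 9.34% of all genes tested. The 10 genes were chosen with the Adult values known, and Hsd3b5 is not among the genes tested, so nothing is read from this count. In a fit of the PDX and Adult mice alone, which leaves the wide spread of the Old mice out of the error, 6 of the 9 genes passed, but so did 29.6% of all genes tested there. With O2 and O5 left out of the fit of all groups, 6 of the 9 passed as well, against 24.6% of all genes. Without O2 alone the number was 3 (11.1% of all genes) and without O5 alone 4 (10.9%). Hsd3b5, which is not among the 9, entered 13 of the other fits, those without a low-count filter or with mice left out, and passed in PDX to Adult in all 13 and in Old to Adult in 5. With mice left out it met the filter through the Adult counts, so these calls are no support for a difference. Leaving out A2, A4, A5, P1, P2 or P4 put Hsd3b2 out of the genes called, at adjusted p-values of up to 0.0649 in edgeR's test. The summed Hsd3b counts, most of them from Hsd3b3, gave -1.94 ± 0.61 and did not pass (adjusted p = 0.0967 in edgeR's test).

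Levels of different genes can be set side by side only per length, here as CPM per kilobase of annotated exon. In the Adult mice the order was Hsd17b6 (207 ± 58.4, SD, n = 5), Hsd11b1 (179 ± 16.7), Hsd17b13 (152 ± 10.3), Hsd17b10 (115 ± 9.81), Hsd17b2 (87.0 ± 11.2), Hsd17b11 (62.7 ± 3.78), Hsd3b3 (22.1 ± 4.80), Srd5a1 (12.6 ± 0.717), Hsd3b2 (5.85 ± 1.26) and Hsd3b5 (0.528 ± 0.425). The mice of Hsd17b6 and Hsd11b1 overlapped, as did those of Hsd11b1 and Hsd17b13, and the other neighbours in the order did not. In the Old mice Hsd17b13 came first at 125 ± 83.7 and Hsd17b6 stood 4th at 82.8 ± 48.5, with overlap between all neighbours except Hsd17b11 and Srd5a1. The first place there goes with O5, which had 271 for Hsd17b13 and 14.0 for Hsd11b1. In O1, O3 and O4 Hsd11b1 was the higher, at 212, 132 and 161 against 70.2, 108 and 110. O2 had 68.3 for Hsd11b1 and 69.0 for Hsd17b13. In the PDX mice Hsd11b1 came first at 143 ± 28.2 and Hsd17b6 was 5th at 84.0 ± 42.1. The exon lengths include those of non-coding transcript models and decide part of this order. Per 1000 distinct 50-base windows of the protein-coding transcripts, Hsd11b1 came first in the Adult mice (343 ± 32.2 CPM) and Hsd3b3 (82.6 ± 18.0 CPM) stood before Hsd17b11 (63.6 ± 3.83 CPM). On that scale Hsd11b1 also came first in the Old mice (226 ± 150 CPM), before Hsd17b13 (126 ± 83.7 CPM).

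**Figure D5:**
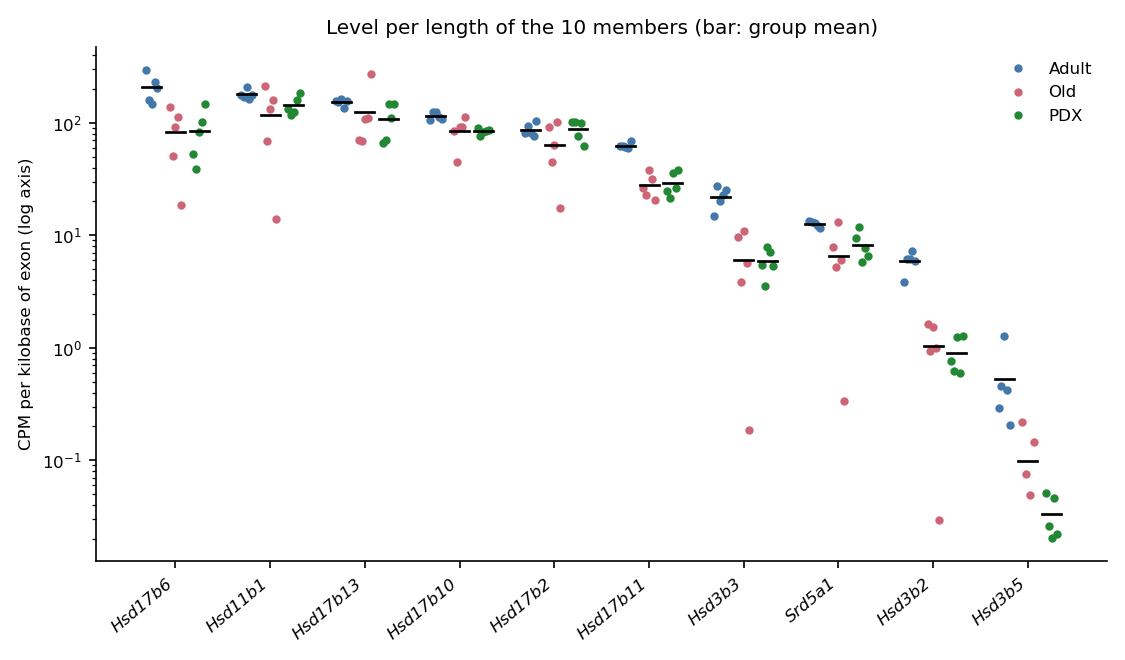
CPM per kilobase of annotated exon (log axis) of the 10 genes in the order of their Adult mean; points are mice and bars group means, in blue for Adult, red for Old and green for PDX. Hsd3b5 has no point for O5, which had 0 counts, and the members span from 207 for Hsd17b6 to 0.528 for Hsd3b5 in the Adult mice.

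Other genes of the family served as a comparison, and 18 of the 21 listed have a gene ID in the table. Of these, 11 passed the low-count filter, and 0 passed the threshold in any of the 3 comparisons by edgeR's test; at an unadjusted p under 0.05 there were 4 in Old to Adult (27.7% of all genes tested), 0 in PDX to Old (5.28%) and 4 in PDX to Adult (20.6%), and DESeq2 called 1, 0 and 1. Their median log2 fold change was 0.21 in Old to Adult, 0.21 in PDX to Old and 0.06 in PDX to Adult. Hsd3b7, which acts in bile acid synthesis, had 53.8 to 80.9 CPM in the Adult, 15.4 (O5) to 63.6 CPM in the Old and 48.9 to 60.4 CPM in the PDX mice. Hsd3b1, the form of the gonads and the adrenal, was read at 21, 5, 0, 6 and 4 counts in A1 to A5, 18, 33, 14, 92 and 0 in O1 to O5 and 72, 31, 11, 52 and 36 in P1 to P5. It thus had more counts in most aged mice, unlike Hsd3b2 and Hsd3b3, at a log2 fold change of 2.29 in Old to Adult (adjusted p = 0.128 in edgeR's test). Hsd3b4 and its near copies Gm10681 and Gm4450 had 0 counts in all 15 mice, and all 1588 windows of Hsd3b4 occur in another gene, so uniquely aligned pairs may miss it. Hsd3b6 had 1 count, in P3.

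The aldo-keto reductases act on the same steroids after or beside these enzymes, and 8 of the 9 listed were tested. In Old to Adult, 1 passed as higher, where 4.71% of all genes did, and 3 as lower, where 2.07% did, by edgeR's test. At an unadjusted p under 0.05 there were 6 (27.7% of all genes), and DESeq2 called 6 (16% of all genes). Akr1c18, which inactivates progesterone, rose by 5.50 ± 1.57 (SE) on the log2 scale, from 0.0287 to 0.309 CPM in the Adult mice to 0.0721 to 27.7 CPM in the Old mice, whose lowest, O5, was within the Adult range. Akr1c19 fell by 1.26 ± 0.31, Akr1d1, the 5-beta reductase of bile acid and steroid hormone breakdown, fell by 1.25 ± 0.36 and Akr1c12 fell by 0.88 ± 0.19. In PDX to Adult, Akr1c18 was the 1 gene of this list to pass by edgeR's test, higher by 7.16 ± 1.63, where 1.76% of all genes passed as higher. There 7 of the 8 estimates were under 0. At an unadjusted p under 0.05 there were 5 (20.6% of all genes), and DESeq2 called 3 (8.75%).

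Among 21 tested genes of steroid hydroxylation and conjugation, 2 passed as higher (4.71% of all genes) and 2 as lower (2.07%) in Old to Adult. At an unadjusted p under 0.05 there were 10 (27.7% of all genes), and DESeq2 called 8 (16%). The estrogen sulfotransferase Sult1e1 rose by 7.02 ± 1.24 (SE) and Sult2a2 rose by 2.00 ± 0.51, while the glucuronosyltransferases Ugt2b1 and Ugt2b5 fell by 1.46 ± 0.42 and 0.93 ± 0.21. In PDX to Adult, Sult1e1 passed as higher (6.53 ± 1.22), where 1.76% of all genes did, and Ugt2b5 as lower (-0.94 ± 0.21), where 0.898% did. There 13 of the 21 were at an unadjusted p under 0.05 (20.6% of all genes), and DESeq2 called 9 (8.75%). Of the 9 tested steroid receptors and cofactor genes, 0 passed in Old to Adult by edgeR's test, with 7 at an unadjusted p under 0.05 and 3 in DESeq2, and the xenobiotic receptor gene Nr1i3 passed in PDX to Adult as lower, at -1.04 ± 0.26. Of 12 glucocorticoid-induced genes, 0 passed in any comparison by edgeR's test, with 3, 4 and 5 at an unadjusted p under 0.05 in Old to Adult, PDX to Old and PDX to Adult, and 2, 0 and 2 called by DESeq2.

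Genes with a sex bias in mouse liver were listed because Hsd3b5 is one of them. Of 10 tested male-biased genes, the transporter gene Slco1a1 fell by 5.07 ± 0.79 (SE) and Nudt7 fell by 1.61 ± 0.43 in Old to Adult, and Serpina1e rose by 2.53 ± 0.53. These were 2 genes called lower, as were 2.07% of all genes, and 1 called higher, as were 4.71%. At an unadjusted p under 0.05 there were 6, and DESeq2 called 4. In PDX to Adult, Slco1a1 passed alone, as lower, at -6.09 ± 0.85, where 0.898% of all genes passed as lower. There 7 of the 10 were at an unadjusted p under 0.05, and DESeq2 called 5. Of 13 tested female-biased genes, A1bg passed in Old to Adult, higher by 4.74 ± 1.33, and Cux2 in PDX to Adult, higher by 1.32 ± 0.28. As higher, 4.71% and 1.76% of all genes passed in these 2 comparisons. At an unadjusted p under 0.05 there were 4 and 7 of the 13, and DESeq2 called 3 and 6. In PDX to Old, 0 genes of any of these lists passed, by edgeR or DESeq2, with 0 to 4 per list at an unadjusted p under 0.05.

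Markers of other cells moved with age beside these genes. All 7 tested neutrophil markers passed as higher in Old to Adult. The summed level of the list was 2.35 to 6.16 CPM in the Adult mice. It was 18.4 to 223 CPM in the Old and 39.6 to 191 CPM in the PDX mice. In PDX to Adult, 3 of the 7 passed as higher by edgeR's test. There all 7 were at an unadjusted p under 0.05, DESeq2 called 7 and 0 estimates were under 0. Of the 8 markers of B and T cells, 3 passed as higher in Old to Adult, with 6 at an unadjusted p under 0.05 and 4 in DESeq2. As higher, 4.71% of all genes tested passed in Old to Adult and 1.76% in PDX to Adult. Of 7 hepatocyte markers 0 passed in any comparison by edgeR's test, with 3, 0 and 2 at an unadjusted p under 0.05 and 3, 0 and 1 in DESeq2. By edgeR's test the stellate cell marker Des passed as higher in Old to Adult and the cholangiocyte marker Spp1 in PDX to Adult. Each was 1 of 6 markers in its list. In Old to Adult 0 of the 6 cholangiocyte markers passed, with 5 at an unadjusted p under 0.05 and 2 in DESeq2. For Kupffer cells and for sinusoidal endothelium, 0 of 6 passed in Old to Adult in edgeR and in DESeq2. There the unadjusted p of edgeR was under 0.05 for 1 and 3. The part of these cells in the levels of the 10 genes was not tested.

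Steroid-making tissue would carry its own enzymes of this family, so adrenal, ovarian and kidney markers were read as well. The 6 adrenal markers summed to 1.29 to 2.08 CPM in the Adult, 1.06 to 13.7 CPM in the Old and 0.852 to 6.91 CPM in the PDX mice. One of the 2 tested, Cyp11a1, which starts steroid synthesis from cholesterol, rose by 5.84 on the log2 scale in Old to Adult. Its counts were highest in O2 (280) and O3 (245), with 78 in O4. The markers did not move together. Cyp11b1 had 0 counts in both O2 and O3, and Cyp21a1 had 2 and 0. These other markers were highest in O4 (62 counts of Cyp11b1 and 71 of Cyp21a1) and P5 (35 and 64). The part of such tissue in the levels of the 10 genes was not tested. The 6 ovarian markers summed to at most 1.28 CPM and the 6 kidney markers to at most 0.260 CPM in any mouse.

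Across the 15 mice, the genes whose log2 CPM followed Hsd3b2 most closely were sought among the 12022 tested genes whose mean log2 CPM was 1 or more. They were Acaa1b (Pearson r = 0.972), Angptl6 (0.969), Cyp1a2 (0.968), Ormdl1 (0.967) and Hsd3b3 (0.964). The mice share groups and depth, and O5 and the Adult mice lie at the ends of the scale, so these values only describe likeness. That Hsd3b3 is among the 5 has to be read with the windows it shares with Hsd3b2.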

How the data were processed

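Liver mRNA of 15 mice was measured with 1 library per mouse. Per the paper's methods and the submitters' processing notes, the authors aligned paired reads of 50 bases with STAR (2.6.0c) to mm10 and made the deposited counts per gene with featureCounts (Subread 1.6.2, Ensembl 100) from unique proper pairs on the gene's strand. The deposited values on a log2 scale are the authors' variance stabilizing transformation (DESeq2 1.23.10) of these counts, used here only as an alternative. A total of 0 columns lacked a sample.

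Symbols for 55104 of 55450 IDs, coordinates and sequences came from GENCODE M21. Counts were filtered with filterByExpr (minimum count 10, total 15), scaled by TMM and fitted in edgeR 4.0.16 (R 4.3.3) with the quasi-likelihood test, 1 coefficient per group, all 15 mice. Adjusted p-values are Benjamini-Hochberg over 15808 genes, with a threshold of 0.05, and 0.25 for PDX against Old. SE is the absolute log2 fold change over the square root of F. Log2 CPM used a prior count of 2. All tests were two-sided. The labels give each mouse its group. Depth is 22424383 to 36070835 counts per mouse, and intervals cover counting error only. On simulated counts of 15808 genes with 200 changed by 2 on the log2 scale, edgeR recovered 159 among 163 calls, and called 0 with none changed. DESeq2 recovered 173 among 208 calls on these counts, and called 11 with none changed. A change of 2 exceeds the Old to Adult estimate of each tested member except Hsd3b2. How many smaller changes would be recovered was not determined.

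The members and lists were chosen with earlier results of these data known. The text names all 10 members, the close paralogs, up to 4 genes past the threshold per list, and the 5 genes most like the member with the largest Old to Adult change. Alternatives were DESeq2 1.42.0, its size factors, no filter, 2-group fits, a replicate block, limma 3.58.1 on the log2-scale values, summed Hsd3b counts, and leaving out mice. The 3 listed genes of the family without an ID (Hsd3b8, Hsd3b9 and Hsd17b8) were not analysed here.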

Additional observations from a re-analysis of the deposited data

Results flagged for a closer look

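With 5 mice a group, each of the 10 genes was examined in each of the 3 groups for a mouse far from the other 4, by Dixon's test at the 95% level, which is 30 groups. Chance gives about 1 in 20, or 1.5 of them, and 2 were found. In the Adult group, A3 had 1.96 CPM of Hsd3b5 (43 counts), and the next highest mouse 0.705 CPM. In the Old group, O5 had 585 CPM of Hsd17b13, and the next highest mouse 236 CPM.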

How the results depend on the processing

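All 9 tested members kept a lower Old to Adult estimate under each alternative run, and Hsd17b11 passed the threshold under each of them in Old to Adult and PDX to Adult. The members were chosen with the first contrast known and each run refits the same mice. The shared sign and the calls of Hsd17b11 are thus no support for a difference. Without O2 and O5 the Old to Adult estimates of Hsd17b2 and Hsd11b1 were smaller than their SE. In Old to Adult, 1072 genes passed, with 2524 in DESeq2, 665 without the filter, 105 in the fit of both groups alone and 603 with limma on the log2-scale values; 2 of the 9 members passed, with 4 in DESeq2, 1 in the fit of both groups and 4 without O2 and O5. Without O2 and O5 there were 1158 genes. Leaving out each mouse gave 156 to 2178 genes and 1 to 5 of the 9. In PDX to Adult, 420 genes passed, with 1383 in DESeq2, 4529 in the fit of both groups and 4004 without O2 and O5; 2 of the 9 members passed, with 4, 6 and 6. Leaving out each mouse gave 166 to 1766 genes and 1 to 4 of the 9. PDX to Old gave 0 genes and 0 members under each alternative. With the replicate number as a block, 237 genes and 1 member passed in Old to Adult, 316 and 1 in PDX to Adult, and 0 in PDX to Old. The numbers do not pair animals, and the mean correlation of same-numbered mice was -0.17, 0.03 and 0.09 in these comparisons. The cause of these shifts was not tested.

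Signs turned only in PDX to Old and, for Hsd17b2, in PDX to Adult. In PDX to Old, without O2 and O5, the log2 fold change was -0.23 for Hsd11b1, -0.45 for Hsd17b6, -0.12 for Hsd17b11, -0.12 for Srd5a1 and 0.18 for Hsd17b13. Under the block it was 0.0091 for Hsd17b10 and 0.15 for Hsd3b3, and -0.0552 for Hsd17b2 in PDX to Adult. With limma it was 0.0304 for Hsd17b10, 0.17 for Hsd3b2 and 0.64 for Hsd3b3. Leaving out each mouse in PDX to Old gave -0.0027 to 0.60 for Hsd11b1, -0.18 to 0.10 for Hsd17b10, -0.0422 to 0.21 for Hsd17b11, -0.39 to 0.28 for Hsd17b13, -0.27 to 0.28 for Hsd17b6, -0.50 to 0.0372 for Hsd3b2 and -0.35 to 0.28 for Hsd3b3, and -0.0325 to 0.13 for Hsd17b2 in PDX to Adult. The summed Hsd3b counts gave -1.90, -0.04 and -1.94 (adjusted p = 0.0648, 0.988 and 0.0967 in edgeR's test) in Old to Adult, PDX to Old and PDX to Adult. The sum did not pass, but it is mostly Hsd3b3 and so does not test the call of Hsd3b2. Hsd3b5, outside the 9, gave -2.41, -1.47 and -3.88 without the filter (adjusted p = 0.0659, 0.673 and 0.0152 in edgeR's test). It was also in 11 of the 15 fits with 1 mouse left out. There it passed in PDX to Adult in all 11, in Old to Adult in 5 and in PDX to Old in 0. Over all 11 fits the adjusted p-values of edgeR's test ran from 0.00243 to 0.0432, 0.0266 to 0.0730 and 0.515 to 0.999, in that order.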
